A study of Homo sapiens with 4 samples.

Results

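A set of 10 extracellular matrix genes was followed in HEK293 cells and in Synph-293 cells, which are HEK293 cells made to overexpress synphilin-1. They were the small leucine-rich proteoglycans BGN, DCN and LUM, the large proteoglycan VCAN, the matrix proteins SPARC and FN1, and the thrombospondins THBS1, THBS2, THBS3 and THBS4, or 10 of the 60676 genes of the deposited table. The genes were chosen by symbol, on differences already seen between these same groups, namely that BGN and THBS2 were lower in Synph-293 while some collagen genes were higher. Their own differences are therefore given as a description, with no test. By counts, BGN was 16.5-fold and THBS2 6.12-fold lower in Synph-293, and VCAN 2.13-fold and FN1 1.76-fold higher. Also by counts, LUM, SPARC, THBS1, THBS3 and THBS4 differed by less than 1.5-fold, while DCN was near 0 in every library. Levels scaled for length, given below, differed from this for THBS1, THBS2 and THBS4.

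The HEK293 group held 2 libraries of the parental line, labelled wild type, and the Synph-293 group 2 libraries labelled as overexpressing synphilin-1, all from untreated cells grown in serum-containing medium. HEK293 is an established line from human embryonic kidney. The sources used here do not say which promoter drove synphilin-1, whether Synph-293 was 1 clone or a pool, or whether each library is a culture of its own, and the p-values below then measure the spread between these libraries, which may be technical. Totals lay between 13284417 and 16998732 counts per library, at which 3 counts, taken as the limit of detection, were worth 0.178 to 0.225 CPM (counts relative to library sizes scaled by TMM). SNCAIP, the gene of synphilin-1, had 17 and 16 counts in HEK293 and 22911 and 24834 in Synph-293, as the labels give it. The 17 kidney markers were mixed, since UMOD and AQP2 of the mature nephron were at 0 in all 4 libraries while LRP2 of the proximal tubule had 352 to 629 counts, and among developmental genes SIX2, WT1 and LHX1 had at least 82 counts in each and PAX8 had 7 to 16. In the edgeR fit PAX2 was higher in Synph-293 (0.685 against 5.11 CPM on average, adjusted p = 0.000184) and SIX2 lower (12.6 against 7.42 CPM, adjusted p = 0.0288). As these were bulk libraries, fewer cells that express a gene and less RNA of it per cell cannot be told apart.

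Biglycan and decorin are secreted proteoglycans whose leucine-rich core binds collagen fibrils and growth factors such as TGF-beta, and lumican helps to space the fibrils of the cornea and other tissues. Versican carries chondroitin sulfate chains and binds hyaluronan, fibronectin is assembled into fibrils by integrins, and SPARC is a calcium- and collagen-binding matricellular protein, meaning one that acts on cells from within the matrix without being a structural part of it. Thrombospondins are multimeric matricellular glycoproteins. Thrombospondins 1 and 2 form trimers, carry the repeats that bind CD36 and inhibit the growth of blood vessels, while thrombospondins 3 and 4 and COMP, the fifth member of the family, form pentamers without these repeats.

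The promoters of the 4 genes with separated groups are shown so that their motifs can be compared. RefSeq (GRCh38.p14) gave promoters for 8 of the 10 genes, from 250 bases before to 50 bases after the start, with 2 entries each for THBS3 and THBS4, and DCN and LUM had none. Sequences run 5′ to 3′ on the strand of the gene, and capitals mark, on either strand and with overlaps allowed, the GC box GGGCGG, the TATA box TATAAA, the AP-1 motif TGANTCA and the cAMP response element TGACGTCA. The regions are chrX:153494730-153495029 (plus strand) for BGN, chr6:169253797-169254096 (minus strand) for THBS2, chr5:83471494-83471793 (plus strand) for VCAN and chr2:215436019-215436318 (minus strand) for FN1.
BGN: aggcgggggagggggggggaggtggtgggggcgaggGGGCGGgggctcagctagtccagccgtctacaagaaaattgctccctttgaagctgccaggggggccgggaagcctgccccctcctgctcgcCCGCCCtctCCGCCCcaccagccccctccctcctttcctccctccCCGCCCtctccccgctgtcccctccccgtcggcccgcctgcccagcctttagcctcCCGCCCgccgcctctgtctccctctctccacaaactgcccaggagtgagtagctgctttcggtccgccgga
THBS2: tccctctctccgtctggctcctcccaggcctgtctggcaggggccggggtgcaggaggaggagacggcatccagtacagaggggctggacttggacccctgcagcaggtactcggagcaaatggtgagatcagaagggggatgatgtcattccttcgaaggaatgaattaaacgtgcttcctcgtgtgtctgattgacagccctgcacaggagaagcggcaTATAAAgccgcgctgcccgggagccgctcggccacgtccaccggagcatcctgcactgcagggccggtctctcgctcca
VCAN: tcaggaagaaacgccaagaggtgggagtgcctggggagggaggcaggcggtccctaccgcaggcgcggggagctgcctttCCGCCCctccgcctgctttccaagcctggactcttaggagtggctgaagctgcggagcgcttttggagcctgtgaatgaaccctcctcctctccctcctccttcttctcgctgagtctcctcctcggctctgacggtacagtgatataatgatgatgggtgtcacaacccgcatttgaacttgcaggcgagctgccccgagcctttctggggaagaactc
FN1: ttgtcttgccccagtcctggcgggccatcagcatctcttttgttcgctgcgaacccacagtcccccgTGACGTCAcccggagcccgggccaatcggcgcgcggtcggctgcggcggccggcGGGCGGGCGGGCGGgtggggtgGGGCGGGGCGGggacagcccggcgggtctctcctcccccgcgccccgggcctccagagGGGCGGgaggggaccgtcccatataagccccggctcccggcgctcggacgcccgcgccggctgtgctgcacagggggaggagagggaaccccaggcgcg

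The 2 genes with lower counts did not share these motifs. The BGN window held 5 GC boxes and no TATA box, and the THBS2 window held a TATA box starting 29 bases before the start and no GC box. The VCAN window held 1 GC box, and the FN1 window 6 GC boxes, some of them overlapping, and a cAMP response element starting 183 bases before the start. No window of the 8 genes held the AP-1 motif, and only that of THBS2 held the TATA box in the exact spelling TATAAA. Other spellings of the TATA box were not searched. Among all 35116 RefSeq promoters of this length, 45% held the GC box, 11.5% the TATA box, 7.71% the AP-1 motif and 1.85% the cAMP response element. The number of CpG dinucleotides was 19 in the BGN, 17 in the THBS2, 15 in the VCAN and 38 in the FN1 window, against a median of 14 over all promoters. A match is a run of letters in this window and not a measured binding site.

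BGN (ENSG00000182492, chromosome X, 153494980 to 153509546, plus strand, GRCh38), which encodes biglycan, was lower in both Synph-293 libraries than in either HEK293 library. Its counts were 117 and 83 in HEK293 and 11 and 2 in Synph-293, or 6.94 and 6.22 CPM against 0.656 and 0.123 CPM. The group means were 6.58 ± 0.510 and 0.389 ± 0.377 CPM (SD, n = 2 each), and the log2 fold change fitted by edgeR was -4.04 ± 0.45 (SE). The last library lay under the limit of 3 counts, and leaving out that library gave a log2 fold change of -3.31, against -5.64 when the other Synph-293 library was left out. Per length, in TPM (a share of all transcripts in the library, as deposited by the authors), the level was 4.58 and 4.21 in HEK293 and 0.45 and 0.39 in Synph-293, a log2 ratio of the means of -3.39.

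DCN and LUM, neighbours on chromosome 12 on the minus strand, were low in both lines. DCN (ENSG00000011465, 91140484 to 91182824), which encodes decorin, had 0 counts in both HEK293 libraries and 2 and 3 counts in Synph-293, all at or under the limit, so that no fold is given. It did not pass the filter on low counts and was not tested. LUM (ENSG00000139329, 91102629 to 91111494), which encodes lumican, had 2.96 and 1.95 CPM in HEK293 and 2.56 and 3.81 CPM in Synph-293, so that the groups overlapped. Its log2 fold change was 0.36 ± 0.33 (SE), and its TPM of 2.60 and 3.03 in HEK293 lay just under the 3.06 and 3.66 of Synph-293. KERA and EPYC, the other small leucine-rich proteoglycans of that cluster, had 0 counts in every library and 1 count in a single Synph-293 library, respectively.

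VCAN (ENSG00000038427, chromosome 5, 83471618 to 83582303, plus strand), the versican gene, was higher in both Synph-293 libraries. It had 2353 and 1171 counts in HEK293 and 3570 and 4413 in Synph-293, which gave a mean of 114 ± 36.6 CPM in HEK293 and of 242 ± 41.0 CPM in Synph-293 (SD, n = 2 each). The fitted log2 difference was 1.09 ± 0.22 (SE), between 0.79 and 1.46 when each library was left out, and the log2 ratio of mean TPM was 1.13. The HEK293 libraries differed from each other by more than the groups' nearest libraries did as a ratio, at 140 and 87.7 CPM, beside 213 and 271 CPM in Synph-293.

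FN1 (ENSG00000115414, chromosome 2, 215360440 to 215436073, minus strand), the fibronectin gene, had the same order of libraries. Its CPM were 83.2 and 58.8 in HEK293 and 107 and 142 in Synph-293, with a log2 fold change of 0.81 ± 0.20 (SE) that lay between 0.59 and 1.09 when each library was left out. In TPM the separation was wider, with 18.1 and 17.8 in HEK293 and 33.8 and 41.9 in Synph-293, a log2 ratio of the means of 1.08. SPARC (ENSG00000113140, chromosome 5, 151661096 to 151686975, minus strand) was the most abundant of the 10 genes per length in every library, at 284 and 219.9 TPM in HEK293 and 292.6 and 295 TPM in Synph-293. By CPM its groups overlapped (214 and 154 against 190.3 and 211), with a log2 fold change of 0.12 ± 0.19 (SE).

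Of the thrombospondins, THBS2 (ENSG00000186340, chromosome 6, 169215780 to 169254044, minus strand) was the one with separated groups by CPM. It had 148 and 65 counts in HEK293 and 21 and 16 in Synph-293, or 8.78 and 4.87 CPM against 1.252 and 0.982 CPM. Its log2 fold change was -2.61 ± 0.36 (SE), between -2.96 and -2.11 when each library was left out. In TPM the difference was smaller, with 2.24 and 1.28 in HEK293 and 0.91 and 0.24 in Synph-293, a log2 ratio of the means of -1.61.

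THBS1 (ENSG00000137801, chromosome 15, 39581079 to 39599466, plus strand), the thrombospondin of platelet granules, took opposite signs in the 2 units. By CPM it was at 4.86 and 2.696 in HEK293 and at 3.16 and 5.16 in Synph-293, with overlapping groups and a log2 fold change of 0.12 ± 0.34 (SE). By TPM it was at 1.13 and 1.42 in HEK293 and at 0.73 and 0.94 in Synph-293, and the log2 ratio of the means was -0.61. THBS3 (ENSG00000169231, chromosome 1, 155195588 to 155209051, minus strand), the most abundant thrombospondin gene per length, overlapped between the groups in both units, at 23.1 and 17.01 TPM in HEK293 and 17.06 and 18.3 TPM in Synph-293 (log2 fold change by counts -0.08 ± 0.17, SE). THBS4 (ENSG00000113296, chromosome 5, 79991311 to 80083287, plus strand) had between 26 and 32 counts in each library and a log2 fold change of -0.25 ± 0.34 (SE), while its TPM was 1.83 and 3.49 in HEK293 and 1.34 and 1.75 in Synph-293.

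**Figure D1:**
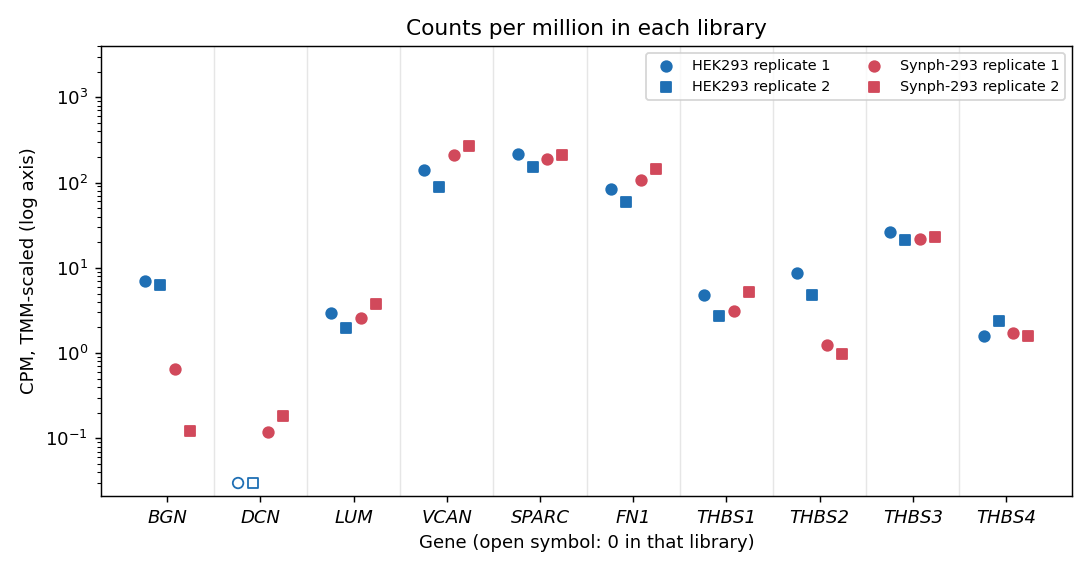
Level in CPM (TMM-scaled, logarithmic axis) of the 10 genes in each of the 4 libraries, with 1 symbol per library and open symbols for libraries at 0. The Synph-293 symbols lie under the HEK293 symbols for BGN and THBS2 and above them for VCAN and FN1, and they interleave for LUM, SPARC, THBS1, THBS3 and THBS4.

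The order of the levels per length was similar in the groups except for BGN, THBS2, FN1 and LUM. In HEK293 the mean TPM was 252 ± 45.2 for SPARC, 24.9 ± 5.49 for VCAN, 20.0 ± 4.29 for THBS3, 18.0 ± 0.191 for FN1, 4.395 ± 0.262 for BGN, 2.66 ± 1.17 for THBS4, 1.76 ± 0.679 for THBS2 and 1.27 ± 0.205 for THBS1 (SD, n = 2), with LUM at 2.60 and 3.03 TPM. VCAN overlapped with THBS3 and THBS3 with FN1, as did LUM with THBS4, THBS4 with THBS2, and THBS2 with THBS1. In Synph-293, BGN came next to last at 0.42 ± 0.0424 TPM, inside the 0.24 to 0.91 TPM of THBS2, and FN1 at 37.8 ± 5.68 TPM came second to VCAN at 54.6 ± 7.97 TPM among all but SPARC (SD, n = 2). The summed TPM of the 10 genes was 366 and 289 in HEK293 and 399 and 423 in Synph-293, most of it from SPARC.

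**Figure D2:**
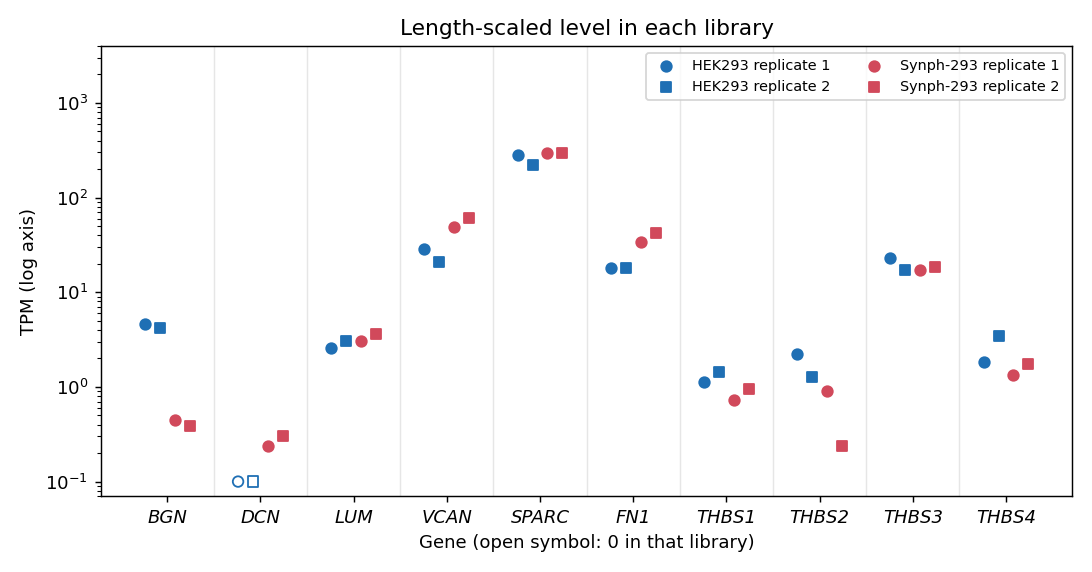
Level per length (TPM, logarithmic axis) of the 10 genes in each of the 4 libraries, with 1 symbol per library and open symbols for libraries at 0. SPARC is highest in every library at 219.9 to 295 TPM, and the groups do not overlap for any of the 9 genes tested except THBS3, though for LUM the gap is as narrow as 3.03 against 3.06 TPM.

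Of the 9 genes that passed the filter, 4 had groups that did not overlap by CPM, VCAN and FN1 higher and BGN and THBS2 lower in Synph-293. In the edgeR fit across all 16421 genes, 10.0% were called higher, 6.58% lower and 16.6% in either direction at an adjusted p under 0.05. The contrast is the one the genes were chosen on, so nothing is read from the count. The median log2 fold change of the 9 genes was 0.12, beside -0.01 over all genes tested, and it ran from -0.13 to 0.38 when each library was left out. In limma this median was -0.1576 on log2(TPM + 1) and -0.1645 on log2(TPM + 0.1). By TPM, 4 of the 9 genes were higher and 5 lower, and 8 had groups that did not overlap, all but THBS3. The percentages above are of genes called, which is another measure than groups that do not overlap. The share of all genes with such groups is not given here, so nothing is read from the counts of separated genes in either unit.

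**Figure D3:**
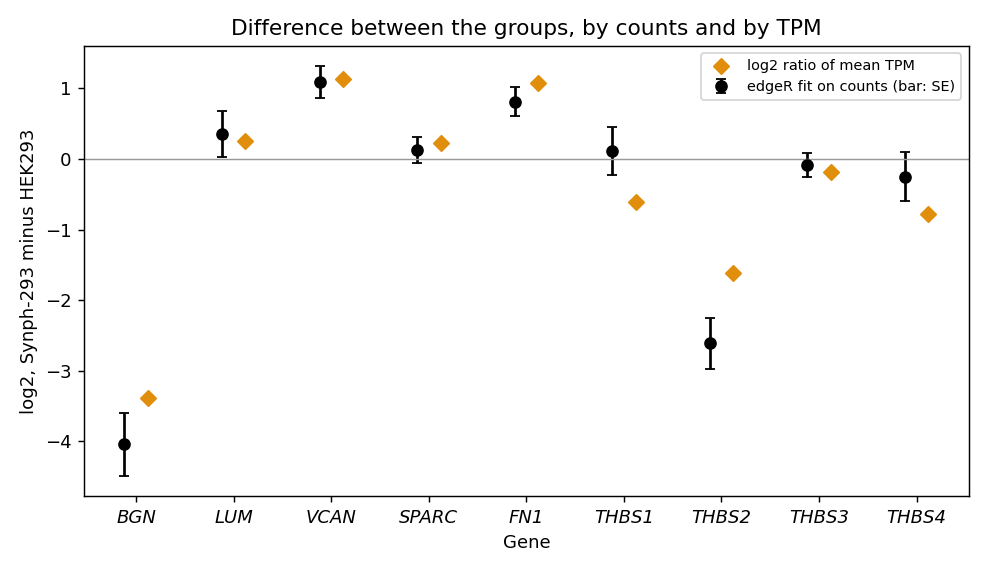
Difference between Synph-293 and HEK293 on the log2 scale for the 9 genes tested, as the edgeR fit on counts with its standard error and as the ratio of the mean TPM of 2 libraries each. Both lie well under 0 for BGN and THBS2, at -4.04 and -3.39 and at -2.61 and -1.61, and they take opposite signs for THBS1, at 0.12 and -0.61.

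TPM and CPM differ by the length by which the counts were divided, which was not the same in every library. Dividing a count by its deposited RPKM, a value scaled for gene length and library size, and the library total gives the gene length, in bases, that the deposited values imply for that library, if the count and RPKM come from the same tool. For 201 genes with a single annotated transcript and at least 500 counts, this implied length was shorter than the transcript by a median of 216 to 227 bases. For genes with several transcripts it can differ between libraries. Among 13022 genes with at least 30 counts and 0.5 RPKM in every library, it differed by more than 1.25 times between the HEK293 libraries for 6.34% and between the Synph-293 libraries for 7.18%. Of the 5 genes of this set that met those minima, FN1 and THBS1 differed by more than that within HEK293 and none within Synph-293.

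FN1 had an implied length of 6458 bases in HEK293 replicate 1 and of 4750, 4691 and 4686 bases in the other libraries, where its longest coding transcript in the GENCODE annotation has 8905 bases. The HEK293 libraries, at 83.2 and 58.8 CPM, therefore stood at 18.1 and 17.8 TPM. THBS1 had 2737 bases in HEK293 replicate 2 and 6030, 6435 and 7537 in the others, against an annotated 7775. THBS2 had 2024 bases in Synph-293 replicate 1 and 5437 to 5658 in the others, so that its 21 counts there became 0.91 TPM while 16 counts in Synph-293 replicate 2 became 0.24. BGN had 2124, 2125 and 2154 bases in the first 3 libraries and 429 in Synph-293 replicate 2, between 316 and 547 given the rounding of its 2 counts and its RPKM. VCAN, whose splice forms keep or skip large exons for chondroitin sulfate attachment, stayed between 6013 and 6805 bases in all 4 libraries, between annotated coding transcripts of 1825 and 12625 bases. The other genes lay between 928 and 1599 bases (LUM), 961 and 1056 (SPARC), 1583 and 1884 (THBS3) and 987 and 1914 (THBS4). The gene-level table does not show which transcripts were counted.

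**Figure D4:**
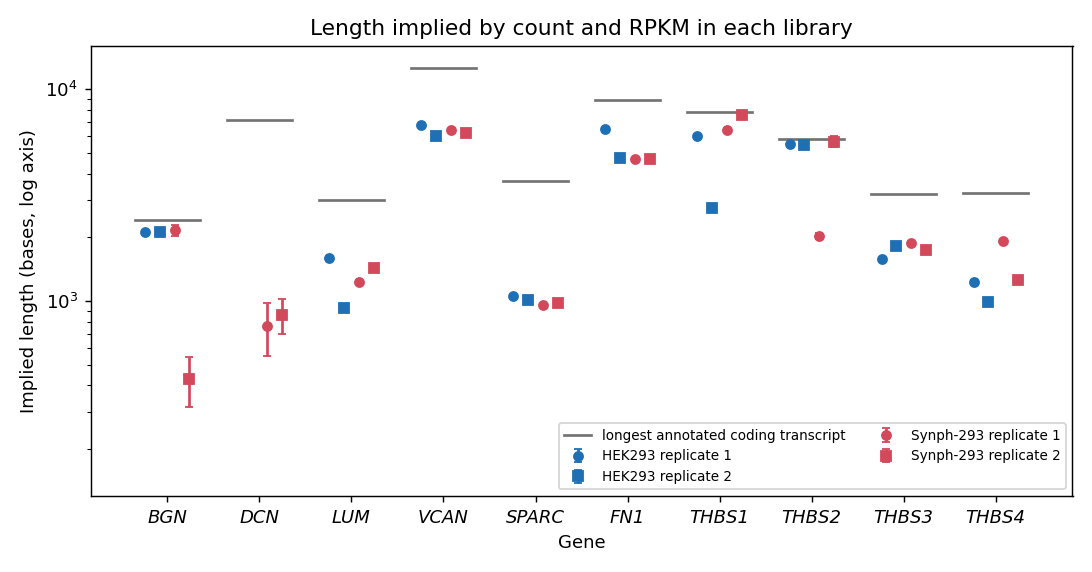
Length implied by count and RPKM for each gene and library (bases, logarithmic axis), with bars for the rounding of the deposited values and a grey line for the longest coding transcript in the GENCODE annotation. Single libraries stand apart for BGN, LUM, FN1, THBS1, THBS2 and THBS4, whereas VCAN and SPARC keep close to 1 length.

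Genes near the separated ones had medians closer to 0. Over the 30 tested genes nearest to each, the median log2 fold change was 0.31 around BGN, -0.15 around THBS2, 0.02 around VCAN and -0.12 around FN1. With it subtracted, the log2 difference was -4.355 for BGN, -2.465 for THBS2, 1.065 for VCAN and 0.93 for FN1. Around BGN the neighbours within 1.58 megabases ranged from -7.36 to 5.88 on the log2 scale, with 6 called higher and 3 lower. Of the 30 around THBS2, 0 were called higher and 3 lower, the lowest at -2.87. Around VCAN 0 were called higher and 2 lower, and around FN1 5 higher and 0 lower, the highest at 2.53. Over all genes tested, 10.0% were called higher and 6.58% lower. The library kit keeps strand, but no source used here states the strand setting of the counts, so reads of overlapping genes on opposite strands may have been counted together. HAUS7 (489 and 511 counts in HEK293, 681 and 557 in Synph-293) overlaps 537 bases of BGN on the opposite strand, and MTX1 overlaps 353 bases of THBS3. The antisense lncRNA BX322234.1 covers 29994 bases of THBS2 and had 27 and 11 counts in HEK293 and 28 and 24 in Synph-293.

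The genes whose profile over the 4 libraries lay nearest to that of BGN, by Euclidean distance of centred log2 CPM, were VILL (distance 0.547, from 3.19 ± 0.693 to 0.180 ± 0.167 CPM), BCL6B (0.759) and FAM71F2 (1.04). Nearest to THBS2 were the laminin chain gene LAMC3 (0.384, from 91.3 ± 25.7 to 17.3 ± 1.34 CPM), ARSD (0.506) and CNKSR1 (0.544). These distances rest on 4 libraries in 2 groups (SD, n = 2 each), and VILL and BCL6B had 1 to 5 counts in each Synph-293 library.

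Collagen genes, some of whose differences were part of how the genes were chosen, stood in both directions, and they are given as a description. Of 44 collagen genes 32 passed the filter, and their median log2 fold change was -0.18, beside -0.01 over all genes tested. In the edgeR fit 7 of the 32 lay past the threshold on the higher side and 6 on the lower side (21.9% and 18.8%, beside 10.0% and 6.58% of all genes), from which nothing is read. Among chains of fibrils, the mean CPM of HEK293 and Synph-293 was 6.88 and 37.6 for COL3A1, 34.5 and 54.3 for COL1A1 and 21.1 and 63.1 for COL5A2. It was 227 and 204 for COL5A1, the most abundant of these chains, 14.8 and 20.2 for COL27A1, 12.3 and 11.5 for COL24A1, 9.04 and 7.84 for COL11A2 and 0.626 and 0.665 for COL2A1, while COL1A2 had 1 to 6 counts per library. Other collagens also stood in both directions. COL17A1 had a mean of 4.21 and 9.36 CPM, COL4A3 of basement membranes one of 10.8 and 2.82 CPM and COL9A3 of cartilage one of 90.3 and 46.8 CPM.

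Other genes of proteoglycan and matricellular biology were tested in the same fit across all genes, as 205 genes in 8 lists. Of the 167 tested, 26 were higher and 15 lower in Synph-293 (edgeR, adjusted p under 0.05), or 15.6% and 8.98% beside 10.0% and 6.58% of all genes, and their median log2 fold change was 0.01. These counts hung on single libraries. Without HEK293 replicate 1 there were 45 higher and 12 lower, without HEK293 replicate 2 there were 26 and 41, without Synph-293 replicate 1 there were 20 and 8, and without Synph-293 replicate 2 there were 17 and 9. Genes of these lists are named below as past the threshold only where their groups did not overlap. That each was higher, or lower, in 2 of 2 Synph-293 libraries follows from this rule.

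Apart from TSKU, the other small leucine-rich proteoglycan genes had at most 16 counts in any library. Of 15 listed, 5 (ASPN, OMD, KERA, CHAD and OPTC) had no count in any library and 2 passed the filter, with 0 called (edgeR, adjusted p under 0.05; 1, PRELP, at an unadjusted p under 0.05 and 0 with DESeq2). TSKU, the most abundant, had a mean of 37.2 CPM in HEK293 and of 33.3 CPM in the Synph-293 libraries. Among 7 tested genes of the hyaluronan system, to which versican binds, 2 were higher and 0 lower. HAS2, a hyaluronan synthase, rose from 0.409 ± 0.260 to 10.2 ± 0.297 CPM (SD, n = 2 each), a log2 fold change of 4.55 ± 0.35 (SE; edgeR adjusted p = 1.07e-05).

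Of 21 cell-surface and basement membrane proteoglycan genes tested, 4 were higher and 2 lower. SPOCK1, a testican related to SPARC, rose from 0.900 ± 0.320 to 8.86 ± 0.202 CPM and the transmembrane gene TMEFF2 from 0.201 ± 0.0331 to 2.09 ± 0.599 CPM. PTPRZ1, a receptor phosphatase that carries chondroitin sulfate, had 0 and 2 counts in HEK293 and 19 and 25 in Synph-293. It missed the threshold in limma on log2(TPM + 1) (adjusted p = 0.0943), though not on log2(TPM + 0.1) (adjusted p = 0.0324). The syndecan SDC2 fell from 127 ± 34.1 to 50.1 ± 9.16 CPM (SD, n = 2 each; edgeR adjusted p = 0.00138). Of 45 genes for the synthesis of glycosaminoglycan chains, all tested, 3 were higher and 2 lower. DSEL, an epimerase that makes dermatan sulfate, rose from 12.1 ± 1.90 to 30.5 ± 2.64 CPM (edgeR adjusted p = 0.000590). HS6ST3, a heparan sulfate sulfotransferase, had a log2 fold change of 0.85, CHPF2, a chondroitin polymerizing factor, one of -0.74, and PAPSS2, which makes the sulfate donor, one of -0.62. These 3 missed the threshold in limma on log2(TPM + 1) with all 4 libraries (adjusted p = 0.161, 0.0665 and 0.106), and HS6ST3 also in DESeq2 (adjusted p = 0.0801). HS6ST3 and PAPSS2 also missed it with replicate number as a block (edgeR adjusted p = 0.0581 and 0.0673). The log2 fold changes of HS6ST3, CHPF2 and PAPSS2 were 0.97, -0.68 and -0.72 without Synph-293 replicate 1, and 0.725, -0.79 and -0.52 without replicate 2. These fits leave 1 Synph-293 library, so only sizes are given and not whether the genes passed.

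Of 15 other matricellular genes tested, 3 were higher and 2 lower, and COMP was higher where THBS2 was lower. COMP, the fifth thrombospondin gene, had 3 and 9 counts in HEK293 and 57 and 58 in Synph-293, and rose from 0.426 ± 0.351 to 3.48 ± 0.115 CPM (SD, n = 2 each), a log2 fold change of 3.09 ± 0.46 (SE; edgeR adjusted p = 0.00111). The tenascin TNC, which binds fibronectin, rose from 11.7 ± 0.610 to 40.7 ± 7.30 CPM and CCN3 from 3.36 ± 1.46 to 11.5 ± 2.98 CPM. CCN1 fell from 138 ± 26.6 to 71.1 ± 15.6 CPM, but missed the threshold with replicate 1 of Synph-293 left out (edgeR adjusted p = 0.117).

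Of 18 tested receptor genes for thrombospondins and fibronectin, 1 was higher and 2 were lower. CD36 and CD47, receptors of thrombospondin 1, had log2 fold changes of 1.04 ± 0.44 and -0.47 ± 0.20 (SE) and did not pass (edgeR adjusted p = 0.128 and 0.132). ITGA5 and ITGB1, the chains of the main fibronectin receptor, had -0.25 ± 0.18 and -0.61 ± 0.24 (SE; adjusted p = 0.364 and 0.104). The integrin chain ITGB8 fell from 25.2 ± 5.08 to 10.7 ± 0.777 CPM (edgeR adjusted p = 0.00145). ITGA8 had a log2 fold change of 1.15 and the scavenger receptor SCARB1 one of -0.64. Both missed the threshold in limma on log2(TPM + 1) with all 4 libraries (adjusted p = 0.216 and 0.133), and ITGA8 also in DESeq2 (adjusted p = 0.124). SCARB1 also missed it with replicate number as a block (edgeR adjusted p = 0.0815). The log2 fold changes of ITGA8 and SCARB1 were 1.04 and -0.60 without Synph-293 replicate 1, and 1.26 and -0.66 without replicate 2. These fits leave 1 Synph-293 library, so only sizes are given and not whether the genes passed.

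Of 24 elastic fibre, fibulin and latent TGF-beta binding genes tested, 5 were higher and 4 lower. The fibrillin gene FBN3 rose from 1.47 ± 0.179 to 9.08 ± 0.530 CPM, and the lysyl oxidase-like gene LOXL4 and the transglutaminase TGM2, which crosslinks fibronectin, fell from 44.4 to 17.2 CPM and from 19.7 to 7.98 CPM on average. For the fibulin FBLN7, the log2 difference of -2.08 missed the threshold with replicate 1 of Synph-293 left out (edgeR adjusted p = 0.0547). Of 35 matrix proteases and inhibitors tested, 8 were higher and 3 lower. ADAMTS16 rose from 0.513 ± 0.196 to 7.47 ± 0.368 CPM and the membrane-type metalloprotease MMP16 from 2.41 ± 0.867 to 20.7 ± 2.14 CPM. HTRA1, a secreted serine protease that cleaves matrix proteins, fell from 58.3 ± 13.7 to 16.5 ± 0.169 CPM (SD, n = 2 each; edgeR adjusted p = 8.44e-05). TLL1, a protease of the BMP1 family, had a log2 fold change of 1.70, and of 1.35 with replicate 2 of Synph-293 left out. That fit leaves 1 Synph-293 library, so whether TLL1 passed in it is not given. TLL1 missed the threshold in limma on log2(TPM + 1) (adjusted p = 0.194).

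**Figure D5:**
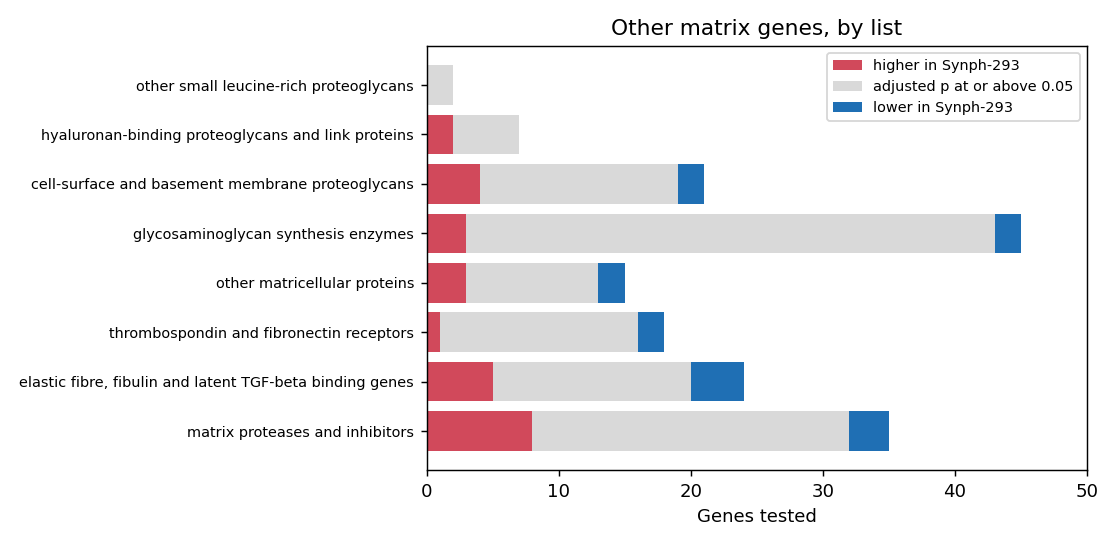
Number of genes tested in each of 8 lists of other matrix genes (horizontal axis), split into those called higher in Synph-293, not called, and called lower by edgeR at an adjusted p under 0.05. Matrix proteases and inhibitors hold the most calls, 8 higher and 3 lower of 35, the synthesis enzymes hold 3 higher and 2 lower of 45, and the other small leucine-rich proteoglycans 0 of 2.

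Markers of cell types known for making these proteins were measured beside them. Of 14 fibroblast markers 10 were tested, and 4 were higher (COL1A1, COL3A1, MMP2 and PRRX1) and 0 lower in Synph-293 in the edgeR fit (1 lower at an unadjusted p under 0.05, 0 with DESeq2), where 10.0% of all genes were higher. COL1A1 and COL3A1 are collagens, on which the choice of genes drew, so the count is not independent of it. The 14 fibroblast markers together had a summed TPM of 160.6 and 150.9 in HEK293 and of 172 and 155 in Synph-293. The fibroblast markers DPT, THY1, FAP and COL1A2 had between 0 and 6 counts in every library. The part of these markers in the differences of VCAN, FN1, BGN and THBS2 was not tested. Of 7 smooth muscle markers tested 2 were higher and 0 lower in the edgeR fit, and their median log2 fold change was -0.26. At an unadjusted p under 0.05 in that fit 2 were higher and 2 lower, and with DESeq2 1 was higher and 0 lower. Of 3 endothelial markers 0 were called (edgeR; 1 at an unadjusted p under 0.05, 0 with DESeq2). The summed endothelial TPM lay between 3.71 and 4.13, with PECAM1 and CDH5 at 1 to 8 counts per library. Of 5 blood cell markers tested CD68 was called higher, PTPRC, which marks leukocytes, had 0 to 3 counts, and the globin genes HBB and HBA1 had 395 to 553 and 189 to 306 counts per library. The summed TPM of the blood cell list was 188.8 and 192.6 in HEK293 and 152.2 and 202.2 in Synph-293.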

How the data were processed

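Polyadenylated RNA of 2 HEK293 and 2 Synph-293 libraries had been sequenced, and groups follow the source names in the labels. The deposited table gives a read count, RPKM and TPM per gene. The deposited counts are whole numbers and were treated as estimated counts, since in each library 43 to 63 genes with no count had a TPM over 0, but which tool gave them is not stated. RPKM and TPM are scaled by the authors for length and library size, per the file headers. The submitters' processing notes name GRCh38.p13 and, with no roles, STAR 2.7.1a, cutadapt 2.8, Cufflinks 2.2.1, RSEM 1.3.1, HTSeq 0.11.2 and featureCounts 2.0.0. The counts were fitted in R 4.3.3 with edgeR 4.0.16 by its quasi-likelihood test (TMM, filterByExpr with a minimum count of 10 and minimum total of 15, no covariates). Benjamini-Hochberg adjustment ran over 16421 genes, with a threshold of 0.05, and the code was tested on simulated data. The SE is the log2 fold change over the square root of F. Detection limits cover counting error only. Replicates differed by more than sampling noise (chi-square over its degrees of freedom 24.7 for HEK293, 17.3 for Synph-293). The genes and lists were chosen with earlier results of these data known. All 10 genes are reported. Each list contributes up to 4 genes past the threshold, those with the largest change, at least 1 CPM on average where higher, and groups that do not overlap. Other names were chosen after their values were seen. Alternatives were RLE size factors, DESeq2 1.42.0, other filters, a replicate block, limma 3.58.1 on log2(TPM + 1) and log2(TPM + 0.1), and leaving out each library.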

Additional observations from a re-analysis of the deposited data

How the results depend on the processing

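The counts of called genes depended on the test and on single libraries. BGN, THBS2, VCAN and FN1, whose groups were separated by CPM, kept their direction in every alternative. SPARC, THBS1, THBS3 and THBS4 changed sign in at least 1 alternative. Of 1648 genes higher and 1081 lower, limma on log2(TPM + 1) called 1132 and 521 and limma on log2(TPM + 0.1) 1086 and 474. Leaving out each library in turn gave 1083 to 2192 higher and 448 to 2026 lower. For the 26 other matrix genes higher and 15 lower, limma on log2(TPM + 1) gave 16 and 11 and limma on log2(TPM + 0.1) gave 17 and 9, and leaving out each library gave 17 to 45 and 8 to 41. The cause was not tested, except that such fits rest on 3 libraries and a lone library is assumed to vary like the other group. With RLE size factors, DESeq2, no filter or a filter of 1 CPM in 2 libraries, these counts stayed within 1.5 times. The labels share replicate numbers between the groups but nothing says that they pair the libraries, and the deviations of same-numbered libraries from their group means correlated at -0.277 across genes. With the replicate block 1380 genes were higher and 719 lower (23 and 11 matrix genes), and with crossed numbers, chosen after seeing the data, 3251 and 3016 (47 and 41). Of the alternative values for the 9 genes tested, 126 stayed within a limit based on the spread of the replicates. They include THBS1, which went from 0.12 to -0.61 as the ratio of mean TPM. The 9 others were of BGN, THBS2 and THBS4, such as BGN at -1.92 and THBS2 at -0.82 on log2(TPM + 1), a scale that understates changes of low genes. Values off that scale moved too. THBS2 was at -1.61 and THBS4 at -0.78 as the ratio of mean TPM, and BGN at -5.64 without Synph-293 replicate 1. Depth limits BGN and THBS2 in Synph-293, DCN in all libraries and THBS4.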
